A study of Ictidomys tridecemlineatus with 15 samples.

Results

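The translation initiation and elongation factors are the genes named Eif or Eef followed by a digit, and their transcription in the liver of the 13-lined ground squirrel is described here by factor complex. Any unit of the count table with such a name, case ignored, was taken, except the Eif2ak kinases, which phosphorylate a factor but are not factors. This gave 43 of the 6324 units. Of these, 19 carried a single gene name and 24 were merged units, in which the gene shares its reads with an overlapping or adjoining gene and cannot be read on its own. Together the 43 units held 0.859% of all counts.

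Global run-on sequencing (GRO-seq) labels RNA in isolated nuclei for 7 min and counts reads of RNA that engaged polymerases were making, so that the values are nascent transcription and not the RNA a cell holds or the protein it makes. The livers came from laboratory-housed females, each sampled once in 1 of 5 states and frozen. Per the paper, body temperature was read with an implanted device or a rectal probe. Summer active animals (SA, 3 libraries) were warm and not yet hibernating. Interbout aroused animals (IBA, 3) were hibernators that had rewarmed for a short while between bouts of torpor. Animals entering torpor (Ent, 3) were cooling, and those in early torpor (ET, 3) and late torpor (LT, 2) were cold. Each library is a different animal, so the spread within a state includes the spread between animals. Another LT library was removed by the authors and was not used here. All run-on reactions were carried out at the same warm temperature, whatever that of the animal had been.

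Protein synthesis begins when eIF2 brings the initiator tRNA to the small ribosomal subunit, which is held open by eIF1, eIF1A and the large eIF3 scaffold, and when the cap-binding eIF4F complex loads that subunit onto an mRNA. The factors eIF5 and eIF5B complete the joining of the subunits, after which eEF1A delivers the aminoacyl-tRNAs and eEF2 moves the ribosome along. Synthesis is known to be largely arrested in cold torpid tissue and to return when the animal rewarms, and the best studied controls act on the proteins, through phosphorylation of eIF2, of eEF2 and of the proteins that bind eIF4E.

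Transcription of 7 of the 19 single-name factors was higher in cold torpor (ET and LT) than in the warm states (SA and IBA). It was lower for 0. All values are relative to the other units of the same library. The 7 were Eif4ebp2, Eif3m, Eif5a, Eif3f, Eef1a1, Eif3j and Eif4enif1, with rises of 1.52 to 2.62 times. They come from 4 of the complexes, with 3 from eIF3, both genes for proteins that bind eIF4E, and 1 each for eIF5A and eEF1A. Among all 4705 single-name units, 18.3% were called higher and 18.7% lower by the same rule, an adjusted p of 0.001 or less in the quasi-likelihood test of edgeR, with p-values adjusted over the 6324 units together (Benjamini-Hochberg). The same 7 factors were called when the 5 states were tested together, for which the share over all single-name units was 26.4%, and DESeq2 called 8 in that test, against 51.4%. DESeq2 called 9 higher and 0 lower in the cold, the same 7 with Eif1 and Eif3d added, against 23.8% and 25% of all single-name units. In edgeR none of the 19 was called between any 2 consecutive states. At an adjusted p of 0.05 or less, 10 factors were higher and 3 lower in the cold, against 30.1% and 35% of all single-name units. The share of the 19 at an unadjusted p of 0.05 or less, 68.4%, was close to that of all single-name units, 68.3%.

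Cold and warm were also split by season of collection. Of the 6 warm libraries 5 came from a season with 0 cold libraries, while the ET libraries were all from a season of their own and the LT libraries from the remaining season, with the other warm library. Since no other state shared the season of ET, season could be fitted only without ET, with LT alone as the cold state. LT against SA and IBA then gave 5 factors higher and 0 lower without season as a covariate, against 11.3% and 8.57% of all single-name units, with Eif3j and Eif4enif1 not called. With season as a covariate 2 were called higher, Eif3f at 1.56 (log2, adjusted p = 0.000274) and Eif3m at 1.57 (log2, adjusted p = 0.000446), and 0 lower, against 2.76% and 3.49%. The other 5 had values of 0.58 for Eif4enif1 to 1.33 for Eif4ebp2, all above 0, with adjusted p of 0.00172 for Eef1a1 to 0.0116 for Eif4enif1. In the season with both, the 2 LT libraries lay above the 1 SA library for 15 of the 19, the 7 included, and below it for 3, against 42.7% and 45.4% of all single-name units. For ET, state and season cannot be told apart.

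All 5 cold libraries lay above all 6 warm libraries for 8 of the 19, the 7 above and Eif1, and below them for 0. Over all single-name units these shares were 20.3% and 20.2%. The median change of the 19 was 0.29 on the log2 scale, with 15 above 0, while the median over all single-name units was −0.07, with 46.5% above 0.

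**Figure D1:**
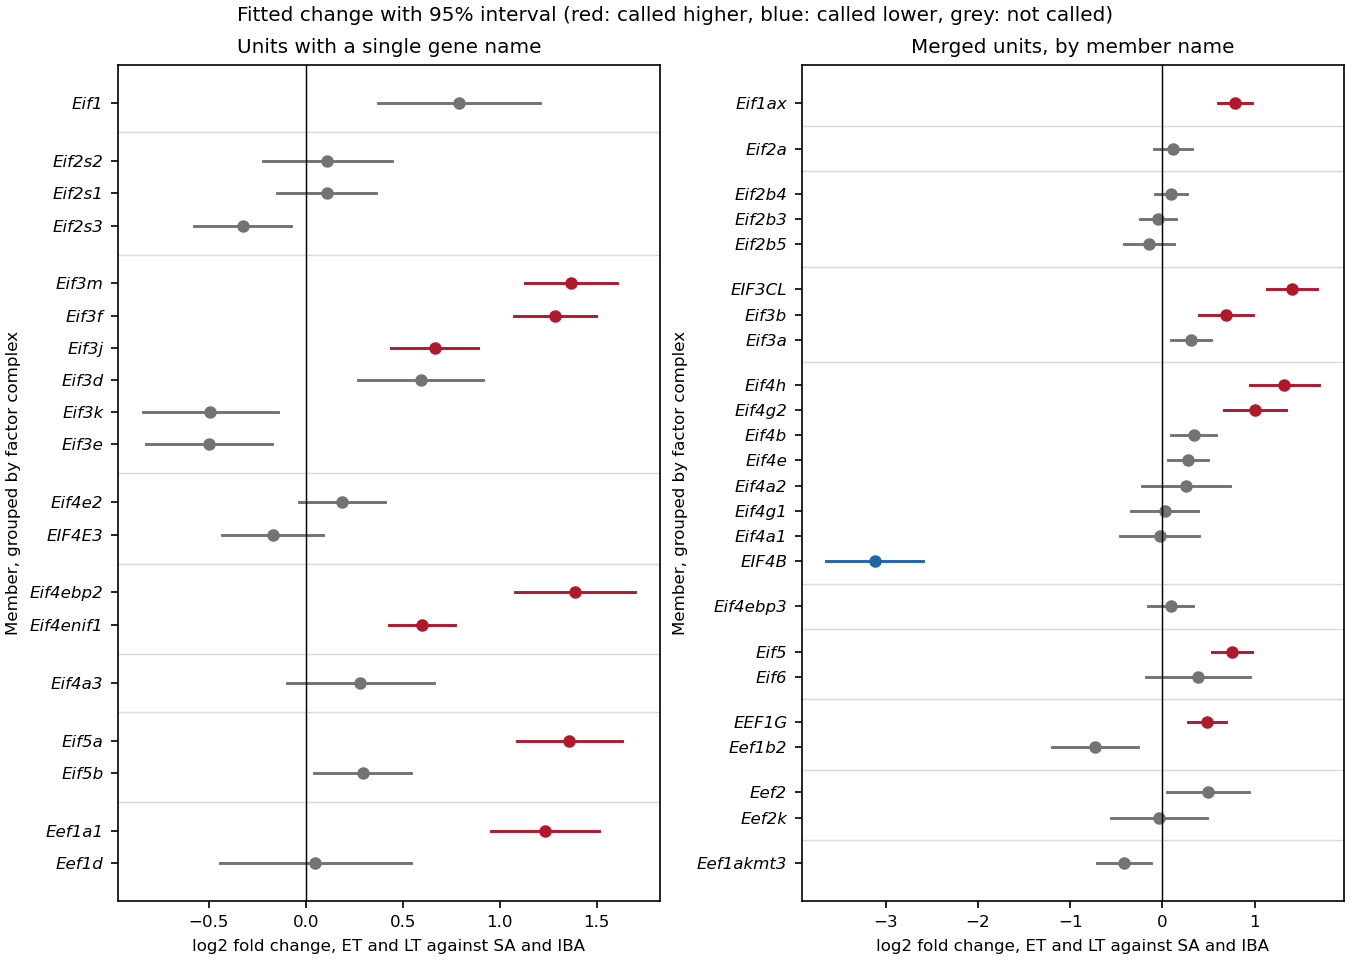
Fitted log2 fold change of ET and LT against SA and IBA (horizontal axis) with its 95% interval for the 19 single-name factors (left) and the 24 merged units (right), grouped by complex and with a separate scale in each panel. The 7 single-name factors called higher lie between 0.60 and 1.39, and the intervals of Eif3e, Eif3k and Eif2s3 lie below 0 without a call.

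These values are CPM, the counts of a unit scaled to the reads in all annotated units of the library and adjusted by TMM. Each is thus relative to the other units in its library. The paper states that its own scaling by library size hides changes in overall transcription between states. It also cites earlier work in which liver transcription nearly stopped in torpor. A higher value in the cold is therefore a larger share of reads, not a measured rise in the amount transcribed. When libraries were scaled to the uniquely mapped reads of the study's library table instead, the median over all single-name units moved from −0.07 to 0.16, and the share of calls that were higher went from 49.4% to 66.6%. The factors called higher then numbered 9, with Eif1 and Eif3d added, against 25.6% of all single-name units. That scaling, too, is relative to the reads of a library. A fall in the number of cells of a type and a fall in the RNA made per cell cannot be told apart in pieces of whole liver.

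Library totals ran from 3713883 to 8884763 counts, and the 19 single-name factors had at least 60 reads in each library. No pair of libraries was identical. Liver identity was checked with the 5 of 9 hepatocyte markers that had a unit of their own (Apob, Cps1, Ttr, Tf and Fgb), which summed to 7831 to 19269 CPM in the warm and 3341 to 6569 CPM in the cold libraries, with Ttr, Tf and Fgb called lower. Of the 7 endothelial markers 3 had a unit of their own, with sums of 186 to 241 CPM in the warm and 124 to 203 CPM in the cold, and Kdr was called lower. Of the 6 cholangiocyte markers Sox9 had a unit of its own, which was at 16.5 to 41.0 CPM in the warm and 7.07 to 18.1 CPM in the cold and was called lower. Macrophage, stellate and lymphocyte markers had no unit of their own, so these cells could not be checked, and Cd68 is counted in the Eif4a1 unit. The part of these shifts in the values of the translation factors was not tested.

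The eIF3 complex, the scaffold that binds the small subunit and recruits it to the mRNA, had 6 single-name subunits, and their calls were not alike. Its subunits form modules, in which eIF3f and eIF3m sit side by side, eIF3d, eIF3e and eIF3k belong to another, and eIF3j is loosely attached. Eif3f, Eif3m and Eif3j were higher in the cold, Eif3d was called by DESeq2 and not by edgeR, and the values of Eif3e and Eif3k were lower in the cold without a call.

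Eif3f (chromosome Itri3, 53885859 to 53903848 on the minus strand, 17990 nt, HiC_Itri_2 genome as for all positions here) was at 50.6, 55.8 and 51.2 CPM in SA, 48.9, 48.7 and 48.2 in IBA, 61.4, 69.4 and 85.7 in Ent, 118, 129 and 114 in ET, and 124 and 127 in LT. The warm libraries lay close together, the Ent libraries lay above every warm library and below every cold library, and ET and LT overlapped. The cold states exceeded the warm states by 1.28 ± 0.10 (log2, SE, adjusted p = 5.19e-07), or 2.43 times, with the smallest adjusted p of the 19. Eif3m (chromosome Itri3, 32123791 to 32152606 on the minus strand, 28816 nt) was at 30.1, 38.2 and 32.6 CPM in SA, 45.2, 36.0 and 45.0 in IBA, 56.2, 60.6 and 66.1 in Ent, 88.9, 107 and 96.4 in ET, and 104 and 89.0 in LT. Its Ent libraries also formed a separate middle group, and SA and IBA overlapped. The difference between cold and warm was 1.37 ± 0.11 (log2, SE, adjusted p = 6.39e-07), or 2.58 times.

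Eif3j (chromosome Itri5, 89670139 to 89694028 on the plus strand, 23890 nt) behaved differently at entrance. It was at 44.6, 59.7 and 44.6 CPM in SA, 42.1, 39.9 and 48.4 in IBA, 43.0, 44.9 and 46.0 in Ent, 76.7, 76.8 and 70.2 in ET, and 73.9 and 71.1 in LT. The Ent libraries lay among the warm ones, and only the cold libraries stood above. The change from Ent to ET was 0.74 ± 0.14 (log2, SE, adjusted p = 0.00253), and that from IBA to Ent was 0.04 ± 0.14 (log2, SE, adjusted p = 0.885). Over cold against warm the difference was 0.66 ± 0.10 (log2, SE, adjusted p = 0.000117), or 1.59 times.

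Eif3d encodes a subunit that can itself bind the mRNA cap. It was at 32.8 ± 10.2 CPM in SA, 30.0 ± 2.38 in IBA, 40.0 ± 4.42 in Ent, 47.0 ± 5.41 in ET and 47.3 ± 3.03 in LT (SD, n = 3, or 2 for LT, here and for all means below), and cold exceeded warm by 0.59 ± 0.15 (log2, SE, adjusted p = 0.00352). A single warm library, SA replicate 2, reached into the cold range, with 44.6 CPM against the lowest cold value of 43.0 CPM. Without that library the change was 0.73 on the log2 scale and passed the threshold. Since the library was picked for its high value, this is no support for a call. With all libraries DESeq2 called Eif3d, at 0.62 (log2, adjusted p = 0.000173), and edgeR did not.

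Eif3e, the subunit at which eIF3 meets other regulators, was at 116 ± 15.1 CPM in SA, 133 ± 20.9 in IBA, 105 ± 11.4 in Ent, 94.7 ± 25.8 in ET and 81.9 ± 7.09 in LT. Its cold minus warm difference was −0.50 ± 0.15 (log2, SE, adjusted p = 0.0104), with a 95% interval of −0.82 to −0.18. Eif3k, a peripheral subunit, was at 22.8 ± 5.08 CPM in SA, 24.5 ± 2.05 in IBA, 23.7 ± 3.09 in Ent, 19.3 ± 3.84 in ET and 14.4 ± 2.48 in LT, with a difference of −0.49 ± 0.16 (log2, SE, adjusted p = 0.0173). Both had their lowest means in LT, both overlapped between warm and cold libraries, and both missed the threshold of 0.001. Eif3k was among the most thinly counted of the 19, with 78 to 195 reads per library.

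**Figure D2:**
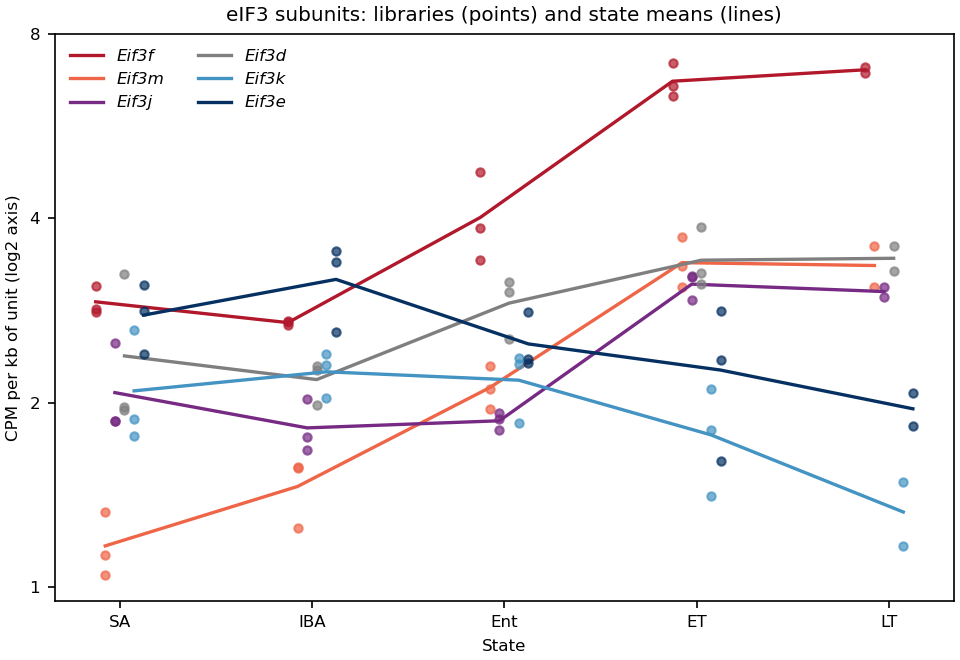
Nascent transcription of the 6 single-name eIF3 subunits in CPM per kb of unit (vertical log2 axis) in each state; points are libraries and lines join state means. Eif3f and Eif3m climb through Ent to ET, Eif3j stays at its warm level in Ent and climbs after it, and Eif3e and Eif3k have their lowest means in LT.

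The eIF3 genes outside this group of 6 sat in merged units. Eif3a, the largest subunit, shares its unit only with small nucleolar RNAs of the SNORA19 family, and it was at 401 ± 67.0 CPM in SA, 356 ± 30.0 in IBA, 408 ± 29.4 in Ent, 485 ± 17.9 in ET and 451 ± 34.6 in LT, a difference of 0.31 ± 0.10 (log2, SE, adjusted p = 0.0164) that was not called. Eif3b, which shares its unit with an unnamed locus, was at 95.6 ± 23.6 CPM in SA, 89.8 ± 5.77 in IBA, 82.8 ± 6.66 in Ent, 149 ± 31.2 in ET and 149 ± 2.52 in LT, a difference of 0.69 ± 0.13 (log2, SE, adjusted p = 0.000626). The unit of EIF3CL, which carries the name of a copy of the eIF3c gene and also holds small nucleolar RNAs and an unnamed gene, was at 84.3 ± 16.1 CPM in SA, 75.9 ± 1.43 in IBA, 133 ± 8.86 in Ent, 209 ± 25.5 in ET and 215 ± 61.5 in LT, a difference of 1.41 ± 0.13 (log2, SE, adjusted p = 1.6e-06). The last was the largest rise of any of the 43 units, and its Ent libraries lay between the warm and the cold ones. The call for the Eif3b unit held without SA replicate 2, Ent replicate 2, Ent replicate 3 or ET replicate 2 and was lost without any of the other 10 libraries, with changes of 0.60 to 0.72 on the log2 scale where it was lost. Reads of the EIF3CL unit cannot be assigned to EIF3CL rather than to an unannotated eIF3c copy.

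The proteins that bind eIF4E keep the cap-binding factor away from eIF4G or carry it within the cell, and both single-name genes of this group rose. Eif4ebp2 encodes a repressor that releases eIF4E when the kinase mTOR phosphorylates it. Its unit (chromosome Itri1, 59676688 to 59714299 on the minus strand, 37612 nt) was at 229.9, 140.0 and 242 CPM in SA, 208, 199 and 199 in IBA, 256, 283 and 280.3 in Ent, 643, 428 and 538 in ET, and 504 and 549.8 in LT. The lowest cold library was far above the highest warm library, and SA replicate 2 stood below the other SA libraries. The difference of 1.39 ± 0.14 (log2, SE, adjusted p = 4.41e-06), or 2.62 times, was the largest of the 19.

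Eif4enif1 encodes 4E-T, which carries eIF4E into the nucleus and represses mRNAs in processing bodies. Its unit (chromosome Itri2, 117321850 to 117377288 on the minus strand, 55439 nt) was at 106, 115 and 96.6 CPM in SA, 103, 106 and 115 in IBA, 121, 130.0 and 123 in Ent, 165, 177 and 158 in ET, and 152 and 162 in LT. Here too the groups did not overlap, but the rise was smaller, 0.60 ± 0.08 (log2, SE, adjusted p = 3.02e-05), or 1.52 times. The Ent libraries lay above all warm libraries and below all cold ones. The repressor gene Eif4ebp3 lies in a unit with ANKHD1 models, at 462 ± 43.4 CPM in SA, 457 ± 79.9 in IBA, 429.7 ± 24.7 in Ent, 495 ± 72.7 in ET and 484 ± 34.5 in LT, with a difference of 0.09 ± 0.11 (log2, SE, adjusted p = 0.499).

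The cap-binding genes themselves showed no call. Eif4e2, whose product binds the cap without recruiting eIF4G, was at 62.6 ± 11.3 CPM in SA, 60.5 ± 4.20 in IBA, 59.9 ± 3.36 in Ent, 68.6 ± 2.06 in ET and 71.3 ± 0.802 in LT, a difference of 0.19 ± 0.10 (log2, SE, adjusted p = 0.128) with an interval of −0.04 to 0.41. EIF4E3, a weaker cap binder, was at 799, 915 and 780.2 CPM in SA, 1322, 1250.2 and 1109 in IBA, 906, 872 and 871 in Ent, 994, 665 and 845 in ET, and 865 and 1062 in LT. Its IBA libraries were above all SA, Ent, ET and LT libraries, and the rest overlapped. The change from SA to IBA was 0.56 ± 0.16 (log2, SE, adjusted p = 0.0624), that from IBA to Ent −0.47 ± 0.16 (log2, SE, adjusted p = 0.0616), and that between cold and warm −0.17 ± 0.12 (log2, SE, adjusted p = 0.228). Scaled to uniquely mapped reads the last value was 0.05, so its direction depends on the scaling. The unit spans 663951 nt (chromosome Itri19, 2622523 to 3286473 on the minus strand), far more than any other single-name factor here, and the table does not show where within it the reads lie.

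The units of the other eIF4F and eIF4B genes were all merged. Eif4e, the main cap-binding protein, shares its unit with an unnamed gene, at 94.5 ± 13.3 CPM in SA, 90.9 ± 7.39 in IBA, 83.3 ± 1.64 in Ent, 118 ± 9.29 in ET and 108 ± 14.6 in LT, a difference of 0.28 ± 0.10 (log2, SE, adjusted p = 0.026). Eif4g1, the scaffold of eIF4F, lies with Fam131a, SNORD66 and Psmd2, at 398 ± 75.3 CPM in SA, 305 ± 36.8 in IBA, 387 ± 92.1 in Ent, 363 ± 98.8 in ET and 347 ± 14.3 in LT, a difference of 0.03 ± 0.17 (log2, SE, adjusted p = 0.895). Neither was called. Eif4g2 encodes a scaffold relative that lacks the site for eIF4E and drives cap-independent initiation, and it shares its unit only with SNORD97. That unit was at 216 ± 28.2 CPM in SA, 206 ± 36.9 in IBA, 236 ± 45.9 in Ent, 356 ± 69.5 in ET and 503 ± 119 in LT, a difference of 1.004 ± 0.16 (log2, SE, adjusted p = 0.000107), with cold and warm libraries apart. Without LT replicate 1, its highest library, the change was 0.87 on the log2 scale and missed the threshold.

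The helicase eIF4A unwinds the mRNA leader, and eIF4B and eIF4H stimulate it. Eif4a1 lies with Senp3, Cd68, Mpdu1 and small nucleolar RNAs, at 503 ± 94.95 CPM in SA, 416 ± 39.1 in IBA, 474 ± 115 in Ent, 405 ± 150.2 in ET and 499 ± 14.7 in LT, a difference of −0.03 ± 0.20 (log2, SE, adjusted p = 0.912). Eif4a2 lies with small nucleolar RNAs and an unnamed gene, at 812 ± 281 CPM in SA, 511 ± 104 in IBA, 627 ± 163 in Ent, 697 ± 188 in ET and 848 ± 145 in LT, a difference of 0.26 ± 0.22 (log2, SE, adjusted p = 0.32). Both varied widely within states and neither was called. Eif4h lies with Lat2 and an unnamed gene, at 64.4 ± 13.9 CPM in SA, 60.1 ± 4.85 in IBA, 73.6 ± 10.4 in Ent, 128 ± 44.7 in ET and 188 ± 20.9 in LT, a difference of 1.32 ± 0.17 (log2, SE, adjusted p = 2.82e-05) that was called higher.

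The name Eif4b stood in a pair of units that had unlike values. In the unit with Tns2 it was at 413 ± 16.4 CPM in SA, 265 ± 30.1 in IBA, 361 ± 23.8 in Ent, 428 ± 90.5 in ET and 408 ± 38.5 in LT, a difference of 0.34 ± 0.11 (log2, SE, adjusted p = 0.0176) that was not called. In the unit named DHRS7 and EIF4B, on another chromosome, the libraries were at 172, 371 and 227 CPM in SA, 194, 181 and 243 in IBA, 139, 88.7 and 74.4 in Ent, 22.7, 34.2 and 29.2 in ET, and 24.6 and 24.3 in LT. All cold libraries were below all others, and the difference of −3.12 ± 0.24 (log2, SE, adjusted p = 5.42e-07) was the only call in the lower direction among the 43 units. Its reads cannot be split between DHRS7, a dehydrogenase gene, and the copy named EIF4B, so the fall cannot be given to a translation factor.

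Eif4a3 encodes a relative of eIF4A that anchors the exon junction complex on spliced mRNA and takes no part in ordinary initiation. Its unit (chromosome Itri7, 2252168 to 2263558 on the plus strand, 11391 nt) was at 14.9, 18.2 and 15.1 CPM in SA, 17.1, 18.2 and 19.6 in IBA, 23.6, 22.2 and 14.2 in Ent, 32.5, 20.8 and 25.5 in ET, and 14.1 and 18.9 in LT. The ET mean was the highest of the states, the LT values were close to the warm ones, and the groups overlapped. Cold against warm differed by 0.28 ± 0.17 (log2, SE, adjusted p = 0.173), and LT against ET by −0.68 ± 0.26 (log2, SE, adjusted p = 0.448). With 60 to 221 reads per library, it was the most thinly counted of the 19.

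eIF5A, the protein that carries the amino acid hypusine and helps ribosomes past difficult sequences, comes from a gene whose transcription was highest in ET. The Eif5a unit (chromosome Itri7, 47130668 to 47142660 on the plus strand, 11993 nt) was at 68.9, 86.9 and 70.5 CPM in SA, 53.1, 71.3 and 64.3 in IBA, 104, 112 and 79.6 in Ent, 228, 191 and 180.0 in ET, and 145 and 167 in LT. The ET libraries were the highest, both LT libraries were below every ET library, and all of them were above every Ent and warm library. Cold exceeded warm by 1.36 ± 0.12 (log2, SE, adjusted p = 1.83e-06), or 2.56 times. The change from Ent to ET was 1.01 ± 0.17 (log2, SE, adjusted p = 0.00128), the largest of the 19 at that step, and from ET to LT it was −0.35 ± 0.19 (log2, SE, adjusted p = 0.646).

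Eif5b, the gene for the GTPase that joins the subunits, was at 109 ± 18.5 CPM in SA, 94.3 ± 4.02 in IBA, 95.3 ± 4.21 in Ent, 121 ± 14.3 in ET and 128 ± 27.1 in LT, a difference of 0.29 ± 0.11 (log2, SE, adjusted p = 0.0389) that missed the threshold. Eif5, the gene for the protein that activates the GTPase of eIF2, shares its unit only with a SNORA28 RNA. It was at 311 ± 34.0 CPM in SA, 251 ± 29.9 in IBA, 330.0 ± 9.03 in Ent, 502 ± 66.1 in ET and 443 ± 10.7 in LT, a difference of 0.76 ± 0.10 (log2, SE, adjusted p = 3.22e-05), and its cold libraries were all above the warm ones. Eif6 encodes a factor that keeps the large subunit from joining too early. Its unit with MMP24-AS1 was at 22.8 ± 7.14 CPM in SA, 21.8 ± 5.36 in IBA, 23.1 ± 9.14 in Ent, 29.0 ± 7.51 in ET and 29.1 ± 10.5 in LT, a difference of 0.39 ± 0.26 (log2, SE, adjusted p = 0.205), so that a change of this size could not be told from the spread.

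Eif1 encodes the factor that guards the choice of start codon, and it had the largest step at entrance. The unit (chromosome Itri7, 20446525 to 20456865 on the minus strand, 10341 nt) was at 151, 85.3 and 189 CPM in SA, 134, 178 and 166 in IBA, 435, 457 and 268 in Ent, 355, 318 and 292 in ET, and 216 and 206 in LT. The Ent mean was the highest of the 5 states, LT was lower than ET in every library, and every cold library was still above every warm library. From IBA to Ent the change was 1.28 ± 0.26 (log2, SE, adjusted p = 0.00842), or 2.43 times, which did not pass the threshold of 0.001 in edgeR, while DESeq2 gave an adjusted p of 8.92e-05. The Ent libraries at 435 and 457 CPM came from the season of the LT libraries. The Ent library at 268 CPM came from the season of all IBA libraries, and it too lay above each of them. The size of this step is thus mixed with season, and no value adjusted for season is given for it here. Cold against warm differed by 0.79 ± 0.19 (log2, SE, adjusted p = 0.00298) and the 5 states together gave an adjusted p of 0.00122, both outside the threshold in edgeR. DESeq2 called Eif1 in both, with adjusted p of 0.000209 and 8.93e-08. Its partner eIF1A was seen only in a merged unit with Map7d2, Rps6ka3 and an unnamed gene, where Eif1ax was at 207 ± 20.3 CPM in SA, 209 ± 11.3 in IBA, 232 ± 12.2 in Ent, 351 ± 17.5 in ET and 366 ± 46.6 in LT, a difference of 0.78 ± 0.09 (log2, SE, adjusted p = 6.52e-06).

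**Figure D3:**
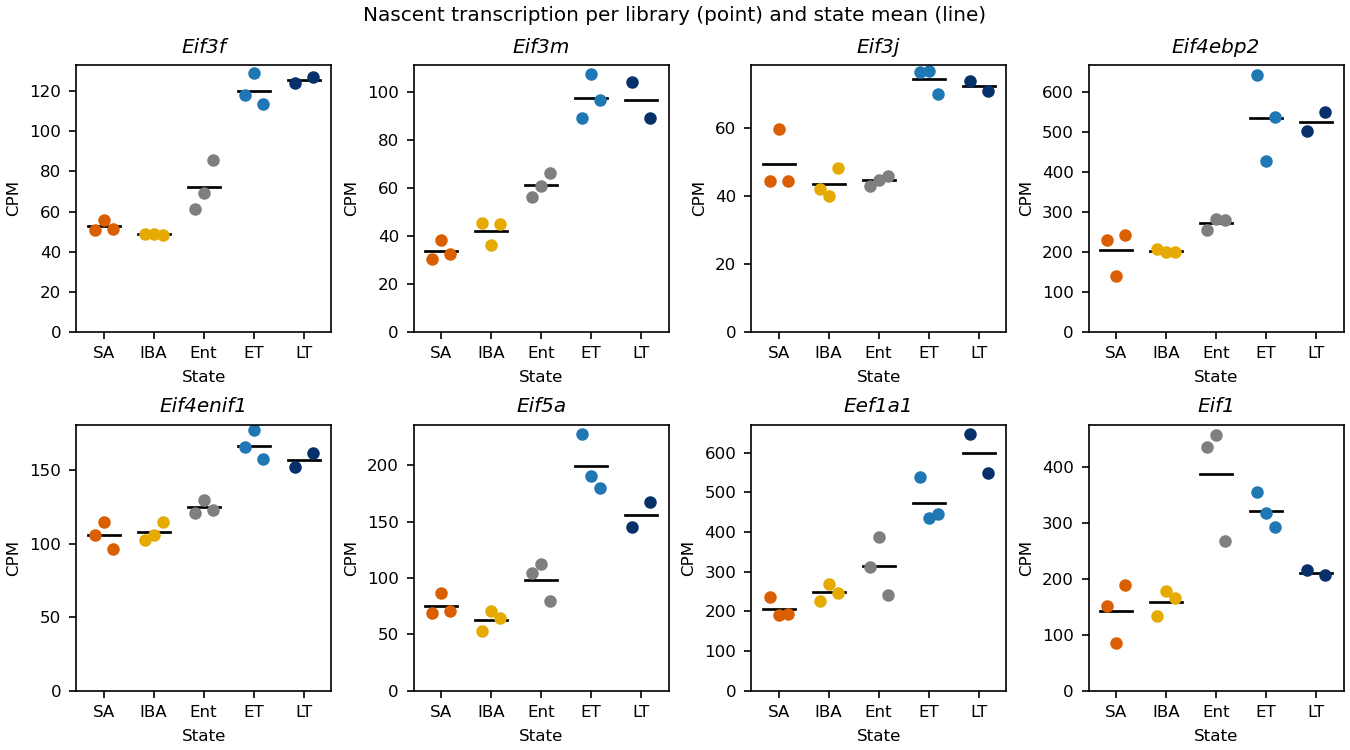
CPM in each library (points) with the state mean (line) for the 7 single-name factors called higher in the cold and for Eif1, with the vertical axis of each panel starting at 0. All 5 cold libraries are above all 6 warm libraries in every panel, Eif3j is at its warm level in Ent, and Eif1 has its highest mean in Ent.

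The genes of eIF2, which carries the initiator tRNA and whose alpha subunit is the target of the stress kinases, gave no call. Eif2s1, for the alpha subunit, was at 67.7 ± 11.9 CPM in SA, 76.8 ± 8.15 in IBA, 76.8 ± 6.09 in Ent, 81.4 ± 12.4 in ET and 74.0 ± 4.31 in LT, a difference of 0.11 ± 0.12 (log2, SE, adjusted p = 0.439) with an interval of −0.15 to 0.36. Eif2s2, for beta, was at 61.7 ± 11.8 CPM in SA, 92.8 ± 9.26 in IBA, 86.7 ± 21.6 in Ent, 83.7 ± 11.6 in ET and 79.7 ± 18.3 in LT, a difference of 0.11 ± 0.15 (log2, SE, adjusted p = 0.541) with an interval of −0.22 to 0.44. For both, the intervals leave out a rise of the size seen for Eif3f or Eif5a. Without LT replicate 1 the estimate for Eif2s2 was −0.02 on the log2 scale, and for both genes the warm and cold ranges overlapped.

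Eif2s3, for the gamma subunit, was the eIF2 gene with the smallest p among the 5 states. Its unit (chromosome Itri10, 12622653 to 12641697 on the plus strand, 19045 nt) was at 32.3, 43.2 and 34.7 CPM in SA, 37.5, 41.8 and 42.6 in IBA, 38.2, 42.8 and 37.4 in Ent, 36.1, 38.7 and 31.0 in ET, and 26.3 and 27.7 in LT. LT was below every other library, while ET overlapped with the warm states. The cold minus warm difference was −0.32 ± 0.12 (log2, SE, adjusted p = 0.0257) and that from IBA to LT was −0.59 ± 0.17 (log2, SE, adjusted p = 0.0135), neither of them called. Eif2a, an alternative carrier of the initiator tRNA that is distinct from eIF2, lies with Selenot and an unnamed gene and was at 263 ± 17.7 CPM in SA, 259 ± 19.2 in IBA, 239 ± 29.4 in Ent, 269 ± 27.8 in ET and 298 ± 8.95 in LT, a difference of 0.12 ± 0.09 (log2, SE, adjusted p = 0.288).

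The exchange factor eIF2B, which recharges eIF2 with GTP, was present only in merged units. Eif2b3 with Hectd3 was at 151 ± 15.8 CPM in SA, 148 ± 9.65 in IBA, 137 ± 2.70 in Ent, 142 ± 18.3 in ET and 149 ± 4.02 in LT, a difference of −0.04 ± 0.09 (log2, SE, adjusted p = 0.691). Eif2b4, in a unit with Mpv17, Gtf3c2, Ppm1g and others, was at 192 ± 14.3 CPM in SA, 191 ± 4.39 in IBA, 206 ± 17.9 in Ent, 201 ± 13.7 in ET and 207 ± 0.00696 in LT, a difference of 0.09 ± 0.08 (log2, SE, adjusted p = 0.331). Eif2b5 with an unnamed gene was at 36.4 ± 2.13 CPM in SA, 30.1 ± 2.53 in IBA, 32.8 ± 3.96 in Ent, 35.5 ± 2.11 in ET and 25.3 ± 6.71 in LT, a difference of −0.14 ± 0.13 (log2, SE, adjusted p = 0.334). None of the 3 was called in any comparison. Between cold and warm none was at an unadjusted p of 0.05 or less, while Eif2b5 was at 0.0237 from ET to LT, with a value of −0.49 (log2, adjusted p = 0.453).

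In elongation, eEF1A brings aminoacyl-tRNAs to the ribosome. Eef1a1 (chromosome Itri8, 70842935 to 70869590 on the minus strand, 26656 nt) was at 236, 190.3 and 194 CPM in SA, 227, 270.3 and 247 in IBA, 313, 386 and 241 in Ent, 539, 435 and 446 in ET, and 648 and 549 in LT. Each cold library was above every warm library and every Ent library, and LT lay above ET. The difference of 1.23 ± 0.13 (log2, SE, adjusted p = 4.51e-06), or 2.35 times, was called, and that between LT and ET, 0.34 ± 0.19 (log2, SE, adjusted p = 0.684), was not. Mammalian genomes hold many processed copies of Eef1a1. Per the paper uniquely aligned reads were counted, so reads that such copies share with it could be missing, and its level is uncertain.

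The exchange factor for eEF1A is made of eEF1B subunits. Eef1d was at 24.9 ± 11.5 CPM in SA, 24.1 ± 3.36 in IBA, 22.0 ± 5.15 in Ent, 23.6 ± 4.13 in ET and 26.9 ± 6.36 in LT, a difference of 0.05 ± 0.23 (log2, SE, adjusted p = 0.861) with an interval of −0.44 to 0.54, too wide to place. EEF1G, in a unit with Gtf2h1, was at 125 ± 14.7 CPM in SA, 159 ± 1.58 in IBA, 176 ± 13.6 in Ent, 219.7 ± 28.5 in ET and 177 ± 0.549 in LT, a difference of 0.49 ± 0.09 (log2, SE, adjusted p = 0.000575). Eef1b2, in a unit with small nucleolar RNAs only, was at 49.5 ± 20.6 CPM in SA, 24.5 ± 3.80 in IBA, 31.7 ± 7.24 in Ent, 28.1 ± 3.92 in ET and 15.9 ± 0.0250 in LT, a difference of −0.73 ± 0.21 (log2, SE, adjusted p = 0.00955). The subunit units thus gave a call in the higher direction, for EEF1G, and a lower value without a call, for Eef1b2. Among the 5 states DESeq2 called both units, with an adjusted p of 1.21e-07 for EEF1G and 7.8e-05 for Eef1b2. The call for EEF1G held without SA replicate 2, ET replicate 3 or any single Ent library and was lost without any of the other 9, with changes of 0.44 to 0.50 on the log2 scale where it was lost.

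Eef2, for the translocation factor, lies with SNORD37, Dapk3 and an unnamed gene and was at 197 ± 64.5 CPM in SA, 144 ± 23.0 in IBA, 173 ± 29.7 in Ent, 213 ± 79.7 in ET and 264 ± 16.3 in LT, a difference of 0.50 ± 0.21 (log2, SE, adjusted p = 0.0501). Eef2k, for the kinase that inhibits eEF2, shares its unit only with a tRNA gene and was at 269.7 ± 94.2 CPM in SA, 157 ± 16.4 in IBA, 223 ± 98.9 in Ent, 172 ± 57.9 in ET and 233 ± 14.7 in LT, a difference of −0.04 ± 0.24 (log2, SE, adjusted p = 0.899). Eef1akmt3, for a lysine methyltransferase of eEF1A, lies with the mitochondrial factor Tsfm and was at 43.6 ± 6.72 CPM in SA, 35.8 ± 6.13 in IBA, 36.3 ± 2.71 in Ent, 27.5 ± 2.54 in ET and 32.0 ± 5.74 in LT, a difference of −0.42 ± 0.14 (log2, SE, adjusted p = 0.0166). None of these units was called.

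Over the 24 merged units, 7 were called higher and 1 lower, against 19.6% and 14.5% of all 1619 merged units. When the 5 states were tested together 5 of the 24 were called, against 22.8%. DESeq2 called 10 of them among the 5 states, against 46.1% of all merged units, with EEF1G, Eif4g2, Eif3b, Eef1b2 and Eif4b added. Between cold and warm DESeq2 called the same 7 higher and 1 lower, against 26.4% and 20.3%. All cold libraries lay above all warm libraries for 6 units and below them for 1, against 23.2% and 17.4%. The higher units were those of EIF3CL, Eif4h, Eif4g2, Eif1ax, Eif5, Eif3b and EEF1G. The partner in the unit was a small RNA only for 5 of the 24, a small RNA or an unnamed gene for 5 more, and another named gene for 14. Among the 5 with a small RNA only (Eif3a, Eif4g2, Eif5, Eef1b2 and Eef2k), Eif4g2 and Eif5 were called.

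Levels can be set against each other between genes only per length. In CPM per kb of unit, Eif1, Eef1a1, Eif5a and Eif4ebp2 were the 4 highest single-name factors in every state. In SA their means were 13.7 ± 5.09, 7.75 ± 0.950, 6.29 ± 0.832 and 5.42 ± 1.48 CPM per kb. In LT they were 20.4 ± 0.671, 22.5 ± 2.62, 13.0 ± 1.32 and 14.0 ± 0.871. The libraries of Eif1 and Eef1a1 overlapped in SA and in LT, while in IBA, Ent and ET every Eif1 library was above every Eef1a1 library. Those of Eif5a and Eif4ebp2 overlapped in each of the 5 states, so that this pair cannot be put in order. The next factor in SA was Eif3f at 2.92 ± 0.159 CPM per kb and the lowest were EIF4E3 at 1.25 ± 0.110 and Eif3m at 1.17 ± 0.144, so the factors that rose were found at both ends of the range. In LT Eif3m reached 3.35 ± 0.369 CPM per kb, beside 3.44 ± 0.221 for Eif3d and 3.04 ± 0.0822 for Eif3j. These levels are averages over whole units, introns included.

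The steps between consecutive states were each small in number of calls. From SA to IBA, 0 of the 19 were called by edgeR and by DESeq2, with 3 at an unadjusted p of 0.05 or less (15.8%, against 23.4% of all single-name units). From IBA to Ent, edgeR called 0 and DESeq2 called 1, Eif1, against 3.38% of all single-name units in the higher direction, and 6 were at an unadjusted p of 0.05 or less (31.6% against 33.4%). At an adjusted p of 0.05 or less 4 factors were higher at this step (Eif1, Eif3f, Eif3m and Eif5a) and 0 lower, against 8.57% and 8.12% of all single-name units. From Ent to ET, edgeR called 0 and DESeq2 called 6, all higher, against 8.44% of all single-name units, and 8 were at an unadjusted p of 0.05 or less (42.1% against 41.1%). The 6 were Eif3f, Eif3j, Eif3m, Eif4ebp2, Eif4enif1 and Eif5a. At an adjusted p of 0.05 or less edgeR placed 7 factors higher at this step, against 15.4% of all single-name units, and 0 lower, against 13.8%. From ET to LT both tools called 0, and 2 were at an unadjusted p of 0.05 or less (10.5% against 9.27%), namely Eif2s3 and Eif4a3, both lower. In edgeR itself the threshold of 0.001 was reached by 1.13% of all single-name units in the higher direction from Ent to ET, and by at most 0.0213% in either direction at the other 3 steps. For DESeq2, shares over all single-name units were not computed from SA to IBA, from ET to LT or in the lower direction. Its counts of 0 there cannot be set against all units.

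Across the torpor bout, from IBA to LT, 5 of the 19 were called higher and 0 lower, against 9.46% and 8.18% of all single-name units. They were Eif3f at 1.37 ± 0.14 (log2, SE, adjusted p = 2.24e-05), Eif3m at 1.20 ± 0.16 (log2, SE, adjusted p = 9.31e-05), Eif5a at 1.31 ± 0.18 (log2, SE, adjusted p = 0.00013), Eef1a1 at 1.27 ± 0.19 (log2, SE, adjusted p = 0.000187) and Eif4ebp2 at 1.38 ± 0.21 (log2, SE, adjusted p = 0.000225). At an adjusted p of 0.05 or less 9 were higher and 3 lower, against 24.1% and 26.6%. This comparison shares its libraries with that of cold and warm and is not separate evidence. The count was 3 without IBA replicate 1 or IBA replicate 3, 1 without LT replicate 1 and 2 without LT replicate 3. Shares over all single-name units were not computed for these fits, so the drop cannot be called particular to these factors. All IBA libraries came from the season without cold libraries and both LT libraries from another, so IBA to LT is also a comparison of seasons. A season covariate rests here on SA and Ent, the states with libraries from both of these seasons. With the season of collection as a covariate and without the ET libraries, Eif3f alone was called, against 0.935% of all single-name units in the higher direction, at 1.65 ± 0.18 (log2, SE, adjusted p = 0.000518), and the values of the other 4 were 1.44 for Eif3m, 1.32 for Eif4ebp2, 1.22 for Eif5a and 0.90 for Eef1a1. 

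Ent was not part of the cold and warm comparison. On the log2 scale of state means, Ent lay a median of 37% of the way from the warm to the cold level for the 7 factors, and 41.6% for the 859 single-name units called higher. By factor, Ent was at 31.9% for Eif4ebp2, 36.7% for Eif5a, 37% for Eif4enif1, 37.4% for Eef1a1, 39.1% for Eif3f and 51.1% for Eif3m. Eif3j was apart, at −7.13%, which places its Ent mean just below its warm mean.

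The nearest unit upstream of each factor was looked up, since run-on reads can pass the end of a gene. Among the 19, the nearest upstream unit lay on the same strand within 20 kb for 3 (15.8%), against 9.35% of all single-name units. They were Eif3j, Eif2s1 and Eef1d. Ctdspl2, which precedes Eif3j by 15776 nt, differed between cold and warm by 0.24 (log2, adjusted p = 0.0599), less than the 0.66 of Eif3j. The unit before Eef1a1 on its strand, a locus named as like SLC17A5, ended 85838 nt away and was itself higher in the cold by 1.48 (log2, adjusted p = 8.14e-05). For Eif3f, Eif3m and Eif4ebp2 the unit before on the same strand was 272014, 708696 and 774723 nt away, with changes of −0.27, 0.03 and −0.20, none of them called. For Eif5a and Eif4enif1 it was nearer, with Elp5 at 52499 nt and Pisd at 30620 nt, and had values of 0.27 (log2, adjusted p = 0.0901) and 0.28 (log2, adjusted p = 0.0242), neither called. Genes without a unit in the table are not counted here, and the part of such reads in these values was not tested.

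Of 63 other genes of translation and its control, 27 had a unit of their own, 16 were only in merged units and 20 had none. In the cold, 5 of the 27 were called higher and 5 lower, and 8 were called among the 5 states, close to the shares of all single-name units (18.3%, 18.7% and 26.4%). Their median change was −0.18 on the log2 scale. The list was drawn up by role and includes kinases and phosphatases of eIF2, partners of the cap and the poly(A) tail, release and recycling factors, and mitochondrial factors.

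Around eIF2, the kinase gene Eif2ak1, known as the heme-regulated inhibitor, was at 69.2 ± 5.90 CPM in SA, 62.6 ± 2.87 in IBA, 47.1 ± 1.44 in Ent, 46.2 ± 0.628 in ET and 41.4 ± 5.68 in LT, a change of −0.59 ± 0.09 (log2, SE, adjusted p = 0.00011). Eif2ak3, for the kinase PERK of the endoplasmic reticulum, was at 142 ± 85.5 CPM in SA, 95.9 ± 17.1 in IBA, 59.4 ± 16.5 in Ent, 70.6 ± 17.6 in ET and 71.3 ± 5.02 in LT, a difference of −0.72 ± 0.26 (log2, SE, adjusted p = 0.0286) that was not called. Ppp1r15a, for GADD34, the stress-induced subunit that directs a phosphatase to eIF2 alpha, was at 23.7 ± 3.81 CPM in SA, 12.3 ± 3.13 in IBA, 26.4 ± 7.18 in Ent, 76.9 ± 32.2 in ET and 83.9 ± 24.8 in LT, a rise of 2.22 ± 0.24 (log2, SE, adjusted p = 5.82e-06). Ppp1r15b, for the other such subunit, was at 72.8 ± 14.8 CPM in SA, 60.0 ± 7.44 in IBA, 56.7 ± 16.4 in Ent, 50.2 ± 13.9 in ET and 33.5 ± 6.31 in LT, a difference of −0.69 ± 0.19 (log2, SE, adjusted p = 0.00653) that was not called. The values of the 2 phosphatase subunits thus lay on opposite sides of 0, and those of both kinases were lower. No unit carried the name of Eif2ak2 or Eif2ak4.

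Ddx3x, for an RNA helicase that helps scanning through structured leaders, was at 146 ± 11.0 CPM in SA, 127 ± 6.41 in IBA, 198 ± 19.3 in Ent, 428 ± 70.2 in ET and 339.9 ± 8.01 in LT, a rise of 1.49 ± 0.10 (log2, SE, adjusted p = 2.85e-07). Pdcd4, for a protein that binds and inhibits eIF4A, was at 60.9 ± 32.9 CPM in SA, 65.9 ± 5.87 in IBA, 79.8 ± 19.96 in Ent, 142 ± 5.68 in ET and 201 ± 37.8 in LT, a rise of 1.42 ± 0.22 (log2, SE, adjusted p = 0.000116). For both, all cold libraries lay above all warm libraries. Abce1, which splits ribosomes after termination, was at 98.0 ± 5.41 CPM in SA, 112 ± 3.32 in IBA, 137 ± 11.6 in Ent, 228 ± 29.2 in ET and 226 ± 24.1 in LT, a rise of 1.12 ± 0.09 (log2, SE, adjusted p = 7.09e-07). The recycling genes were represented further by Nemf, which acts on stalled large subunits, at 161 ± 8.47 CPM in SA, 165 ± 14.5 in IBA, 196 ± 22.9 in Ent, 261 ± 34.8 in ET and 259 ± 0.622 in LT, a rise of 0.67 ± 0.10 (log2, SE, adjusted p = 5.95e-05). This group was not uniformly higher. Ltn1, in a unit of its own, was not called, at 0.11 ± 0.10 (log2, SE, adjusted p = 0.338). Of its merged units, those with Etf1 and Gspt1 were called higher and those with Pelo and Hbs1l lower.

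Of the 6 mitochondrial factors with a unit of their own, 3 were called lower, against 18.7% of all single-name units. Guf1, a mitochondrial elongation factor, was at 38.4 ± 3.32 CPM in SA, 41.9 ± 0.634 in IBA, 23.6 ± 2.71 in Ent, 16.1 ± 2.20 in ET and 16.3 ± 1.78 in LT, a change of −1.31 ± 0.12 (log2, SE, adjusted p = 2.01e-06). Gfm2, which recycles mitochondrial ribosomes, was at 56.2 ± 5.94 CPM in SA, 59.5 ± 5.23 in IBA, 36.3 ± 9.63 in Ent, 24.4 ± 6.34 in ET and 22.4 ± 0.833 in LT, a change of −1.31 ± 0.17 (log2, SE, adjusted p = 2.41e-05). Mtif3, a mitochondrial initiation factor, was at 47.6 ± 17.0 CPM in SA, 63.2 ± 2.85 in IBA, 34.6 ± 5.64 in Ent, 33.7 ± 0.696 in ET and 21.2 ± 5.20 in LT, a change of −1.04 ± 0.17 (log2, SE, adjusted p = 0.000184). The other 3 were not called. Mtif2 gave −0.39 ± 0.14 (log2, SE, adjusted p = 0.031), Gfm1 −0.22 ± 0.11 (log2, SE, adjusted p = 0.103) and Mtrf1 −0.20 ± 0.13 (log2, SE, adjusted p = 0.194). Secisbp2l, a relative of the selenocysteine insertion factor, was at 183 ± 10.7 CPM in SA, 247 ± 18.2 in IBA, 188 ± 3.57 in Ent, 152 ± 25.2 in ET and 155 ± 1.79 in LT. Its change was −0.47 ± 0.09 (log2, SE, adjusted p = 0.000748). Its cold and warm libraries overlapped, and it was not called among the 5 states (adjusted p = 0.00224). Larp4, an RNA-binding protein of the poly(A) tail, was called among the 5 states only (adjusted p = 0.000305), with its highest mean in SA, 484 ± 76.1 CPM.

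**Figure D4:**
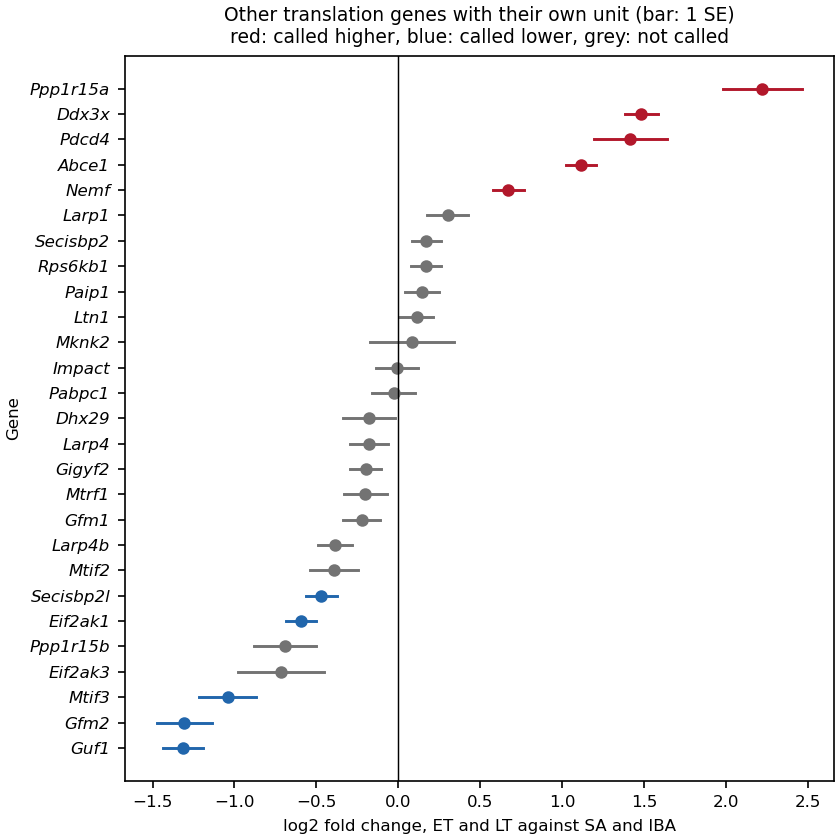
Fitted log2 fold change of ET and LT against SA and IBA, with bars of 1 SE, for the 27 other translation genes with a unit of their own. Ppp1r15a, Ddx3x, Pdcd4, Abce1 and Nemf are called higher, and Guf1, Gfm2, Mtif3, Eif2ak1 and Secisbp2l are called lower.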

How the data were processed

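Nascent RNA was measured by GRO-seq in 14 liver libraries. Per the labels and the study's methods, the authors trimmed the reads with cutadapt and mapped them with BWA to the HiC_Itri_2 genome. They extended the 3′ ends of genes to the end of the run-on signal with fstitch and merged genes that then overlapped. They removed the first 500 nt of each unit and counted uniquely aligned reads with featureCounts. The deposited table holds raw counts for each unit in each library, neither normalized nor pooled by the authors. Versions of these tools and the strand setting are not given in the sources used here. LT replicate 2 was not used, and 0 columns of the table were left without a sample. No libraries were identical.

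Counts of all 6324 units and 14 libraries were fitted once in edgeR 4.0.16 (R 4.3.3) with TMM scaling and the quasi-likelihood test, with no filter and no covariate. Contrasts were the 5 states together, the mean of ET and LT minus the mean of SA and IBA, and the transitions. Adjusted p-values are Benjamini-Hochberg values over the whole table, and a unit was called at 0.001 or less, the threshold of the study. CPM were computed with the TMM library sizes, and CPM per kb divides them by the length of the unit. The intervals are 95% intervals of the fit. The fit was tested on simulated counts with 200 changed units. These counts held no season effect and no shift of all units, so the test does not bear on season or scaling.

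Genes given per library are the single-name factors called in any comparison and the single-name factor of each complex with the smallest 5-state p. Others are given by state means. From a list of 63 other translation genes, those called and the Eif2ak kinases are named. Mtif2, Gfm1, Mtrf1, Ltn1 and the merged units with Etf1, Gspt1, Pelo and Hbs1l were added after their values were seen. The members, complexes and lists were chosen with earlier results of these data known. Of the 43 names, 42 matched a RefSeq symbol, and EIF3CL did not. Alternatives were DESeq2 1.42.0, its size factors, uniquely mapped reads as library size, a minimum of 10 counts, a threshold of 0.05, a block for replicate number, a covariate for season (for LT against SA and IBA added after seeing the data), fits of the compared groups alone, and each library left out. Figures were drawn with matplotlib 3.10.9 in Python 3.11.15.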

Additional observations from a re-analysis of the deposited data

How the results depend on the processing

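The 7 single-name factors called higher in the cold kept their call in each alternative that used both ET and LT, and the count was 7 to 8 when each library was left out and 9 with DESeq2 or with uniquely mapped reads as library size. The count among the 5 states was 5 to 8 when each library was left out and 8 with DESeq2 or uniquely mapped reads. The count of factors whose cold and warm libraries did not overlap was 8 to 10 when each library was left out, with 1 of the 10 below without ET replicate 2, and 11 with uniquely mapped reads, all above. Over all single-name units 20.7% to 22.5% then lay above and 20.7% to 23% below when a library was left out, and 28.2% and 13.5% with uniquely mapped reads. At an adjusted p of 0.05 in place of 0.001, 3 factors were lower in the cold, 4 were called at entrance (IBA to Ent), 7 at the step into early torpor (Ent to ET) and 12 across the bout (IBA to LT). DESeq2 called 1 at entrance and 6 at the step into early torpor, and uniquely mapped reads gave 1 from Ent to ET. When each library was left out, the count from Ent to ET was 0 to 1 (1 without SA replicate 2) and that from IBA to LT was 1 to 6. For the counts of calls with a library left out, shares over all single-name units were not computed. The same holds for the counts with uniquely mapped reads among the 5 states and from Ent to ET. With season as a covariate and without ET, the count from IBA to LT was 1, and that of LT against SA and IBA was 2 higher, against 5 without the covariate, in fits chosen after seeing the data. A minimum of 10 counts in every library, DESeq2's size factors in edgeR and fits of the compared groups alone changed no count for which they were run.

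Estimates near 0 changed sign in some alternatives, none of them called. With uniquely mapped reads as library size, the cold minus warm log2 change became 0.19 for the Eif2b3 unit, 0.054 for EIF4E3, 0.085 for the Eif2b5 unit, 0.19 for the Eif4a1 unit and 0.18 for the Eef2k unit. The median over all single-name units was also higher with that scaling. When each library was left out, the change ran from −0.082 to 0.12 for the Eif4g1 unit, −0.15 to 0.12 for the Eef2k unit, −0.087 to 0.26 for Eef1d, −0.14 to 0.11 for the Eif4a1 unit and −0.017 to 0.22 for Eif2s2. With LT alone as the cold state and without ET, the values were 0.018 for the Eif2b3 unit, −0.031 for Eif4a3, 0.15 for the Eif4a1 unit and 0.21 for the Eef2k unit, and with season as a covariate too they were 0.14, −0.26, 0.044 and 0.90, with −0.025 for the Eif6 unit and −0.044 for the Eif4g1 unit. The cause was not tested.

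The replicate numbers did not pair the libraries. Over 26 pairs of libraries with the same number in different states, the correlation of their deviations from the state means ran from −0.277 to 0.27, and 6 were over 0.1. With the replicate number as a block, 7 factors were called higher in the cold and 0 lower. Over all single-name units that fit called 747 higher (15.9%) and 780 lower. It called 5 factors among the 5 states, 5 from IBA to LT and 0 at each step between consecutive states. For these last counts the shares over all single-name units were not computed.

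Units thinly counted, such as Eif4a3 and Eif3k, limit what can be said of small changes, and LT rests on 2 libraries. With 2 or 3 libraries in a state, outlying libraries were not tested for.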
